A study of Mus musculus with 6 samples.

Results

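Guanylate-binding proteins (GBPs) are large GTPases of the dynamin superfamily that interferons induce in many cell types. In mice they gather on the membranes of vacuoles that hold bacteria or parasites and on free cytosolic bacteria, help to break these membranes, and feed microbial ligands to inflammasomes. Interferon gamma acts through JAK kinases on gamma-activated sites (GAS). IRF1, and a complex that holds STAT2 and IRF9, act on interferon-stimulated response elements (ISRE), and GBP genes are textbook targets of both routes. The members here were the probes annotated with at least 1 of the 8 symbols Gbp2 to Gbp9, which gave 8 of the 35421 probes on the array. Of these, 6 carried a single symbol (Gbp3, Gbp4, Gbp5, Gbp7, Gbp8 and Gbp9). The other 2 carried several symbols: 1 named Gbp2 and Gbp2b, and the other named Gbp11, Gbp10, Gbp9, Gbp6, Gbp8 and Gbp4. Gbp2 and Gbp6 were therefore measured only together with relatives. The family was chosen with results of the Blnk and pMIG comparison known, so its differences are given as a description and their p-values are not independent evidence.

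Total RNA was measured on 6 Affymetrix arrays, each from GFP-positive cells sorted 5 days after transduction. The cells were pre-B cells transformed by BCR-ABL1, a constitutively active tyrosine kinase that drives acute lymphoblastic leukemia with the Philadelphia chromosome, and came from Balb/c mice aged 4 weeks. All 6 samples carry the genotype label Blnk KO. Cells transduced with Blnk (Slp65), an adaptor that relays pre-B cell receptor signals (3 samples), were compared with cells transduced with pMIG, the GFP vector (3 samples). Whether replicates are separate animals, separate cultures or repeat preparations is not in the labels, and the p-values cover only the spread among them, which could be technical.

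The Blnk probe had intensities of 2714, 3342 and 3022 in the Blnk samples, against 972, 926 and 1013 in the pMIG samples, higher where the label says Blnk. The stretch of Blnk that the probe covers is not stated, so the pMIG values do not check the genotype. Median intensity over all probes was 69.0 to 70.0 on the Blnk arrays and 67.0 to 69.0 on the pMIG arrays. Of 13 listed pre-B cell markers 12 were measured, 0 rose and 1 fell, where 0.384% of all probes were called lower. The one that fell was Vpreb1, a surrogate light chain component, with 956, 1167 and 1146 in the Blnk samples, against 1624, 1748 and 1867 in the pMIG samples (log2 difference -0.68, limma adjusted p = 0.0452), a call lost with any 1 array left out (limma adjusted p 0.09 to 0.183). Igll1, another such component, lay between 8968 and 9383 in the Blnk samples and between 10104 and 10793 in the pMIG samples. The receptor signalling chains Cd79a (0.31) and Cd79b (0.35) and Vpreb3 (0.24) stood higher with Blnk, with groups apart, and did not pass. Ebf1 (-0.25) and Il7r (-0.07), like Igll1 (-0.19), stood lower with groups apart and did not pass. Every Blnk array lay above every pMIG array on 3 of the 12 markers and below on 4, where 11.0% of all probes had the first order. The share of all probes with the reverse order was not counted, so counts in that order have no background here or in the lists below. Of the 12, 6 had an unadjusted p under 0.05 (limma), where 13.0% of all probes did. Rag1, Rag2 and Dntt, genes of antigen receptor recombination, were dim on every array, at 35 or less. Over the whole array, 502 of 35421 probes passed the threshold of an adjusted p of 0.05 (366 higher and 136 lower with Blnk; limma with Benjamini-Hochberg adjustment over all probes), and 273 higher and 162 lower when quantile normalization was repeated.

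The GBP genes sit in a pair of clusters in the RefSeq annotation of the mouse, with 0 other protein-coding genes inside either. On chromosome 3 the order is Gbp5, Gbp7, Gbp3, Gbp2b, Gbp2 and the pseudogene Gbp2-ps, and on chromosome 5 it is Gbp8, Gbp9, Gbp4, Gbp10, Gbp6 and Gbp11, which is annotated as a transcribed pseudogene. Start-site windows of 300 bases (250 before and 50 after the annotated start, RefSeq, GRCm38.p6) were at hand for 5 of these genes, Gbp5, Gbp7, Gbp3, Gbp2b and Gbp2, of which Gbp2b is no member. They are shown because both interferon elements are defined by short sequences that can be read directly. Each window was searched on both strands for the ISRE core, a pair of TTTC tetramers with any 2 bases between them, and for GAS, TTCNNNGAA. All 5 genes had the ISRE core in at least 1 window, where 3.99% of all 27025 genes with windows did. In the stretches below, read on the strand of the gene, capitals mark the ISRE core.
Gbp5: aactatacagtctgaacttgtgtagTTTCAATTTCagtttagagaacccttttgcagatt
Gbp7: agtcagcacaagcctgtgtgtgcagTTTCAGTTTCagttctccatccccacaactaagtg
Gbp3: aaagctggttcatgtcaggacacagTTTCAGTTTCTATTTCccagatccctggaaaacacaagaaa
Gbp2b: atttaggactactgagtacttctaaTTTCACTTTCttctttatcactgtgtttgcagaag
Gbp2: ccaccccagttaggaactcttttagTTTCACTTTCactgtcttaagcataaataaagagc
The stretches lie on the plus strand at chr3:142496744-142496803 (Gbp5), chr3:142530258-142530317 (Gbp7), chr3:142559974-142560039 (Gbp3), chr3:142594685-142594744 (Gbp2b) and chr3:142620579-142620638 (Gbp2). Gbp3 had 2 overlapping matches in 1 of its 2 windows and none in the other.

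The ISRE match began 165 bases before the start site in Gbp5 and 137 bases before it in Gbp2b, and closer to it, at 59, 53 and 45 bases, in Gbp2, Gbp7 and Gbp3. GAS was matched in Gbp5 and Gbp7 alone among the 5 genes, with 2 matches each, where 9.55% of all genes had one. In Gbp5 they began 245 and 52 bases before the start site, and in Gbp7 at 106 and 87 bases. A composite ETS-IRF element, TTTC and TTCC with any 2 bases between them, was present on either strand in windows of 3.16% of all genes and was matched once, in Gbp5 at 82 bases. Matches of different kinds did not overlap in these windows. The Gbp5 window, with GAS and ISRE in capitals (chr3:142496684-142496983, plus strand, the gene with all 3 kinds of match), shows their spacing.
Gbp5 window: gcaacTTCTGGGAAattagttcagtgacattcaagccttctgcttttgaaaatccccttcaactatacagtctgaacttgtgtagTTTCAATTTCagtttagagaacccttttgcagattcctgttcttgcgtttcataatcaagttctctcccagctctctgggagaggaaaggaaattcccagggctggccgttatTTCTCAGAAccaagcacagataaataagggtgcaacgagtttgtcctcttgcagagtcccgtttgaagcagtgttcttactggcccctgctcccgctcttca
A match describes letters in these windows and not a bound site, and the windows come from the RefSeq reference and not from the Balb/c cells.

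**Figure D1:**
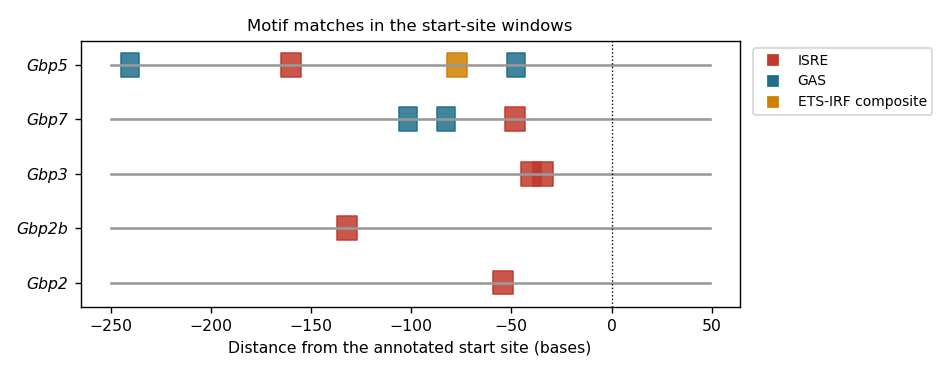
Positions of ISRE, GAS and ETS-IRF matches in the start-site windows of the 5 GBP genes, with the distance from the annotated start site in bases on the horizontal axis and 1 gene per row. Each gene has an ISRE match before its start site, and Gbp5 and Gbp7 also have GAS matches.

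Every GBP member probe was higher with Blnk than with pMIG. The 8 log2 differences (mean log2 intensity with Blnk minus that with pMIG) ran from 0.22 to 0.83, that is 1.17-fold to 1.78-fold, with a median of 0.41, where the median over all probes was 0.007. On 8 of 8 probes every Blnk array lay above every pMIG array, where 11.0% of all probes had this order. Only Gbp4 passed the threshold, so 1 of 8 was called higher, where 1.03% of all probes were, and adjusted p over the 8 probes lay between 0.0446 and 0.24 (limma). The count of calls turned on the fit. With 1 probe per gene, a fit that holds the 6 single-gene probes, Gbp4, Gbp5 and Gbp9 passed, where 2.51% of 19938 genes were called higher. With probes that carry no gene symbol left out, an alternative chosen after seeing the data, the Gbp2/Gbp2b probe passed as well, which made 4 of 8, where 2.38% of 23410 probes were called higher. In bulk RNA, a change in the share of cells that express a gene and a change in RNA per cell cannot be told apart.

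**Figure D2:**
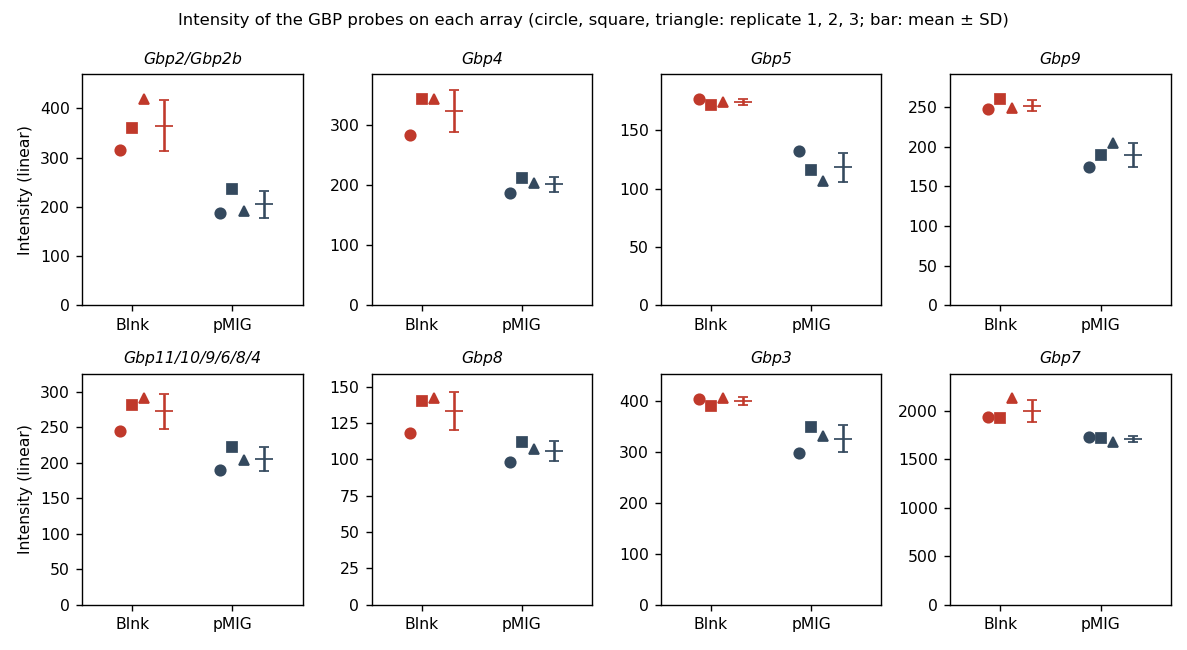
Linear intensity of each of the 8 GBP probes on each array, with the 3 Blnk arrays left of the 3 pMIG arrays, and the mean with its SD beside them. The Blnk points lie above the pMIG points on every probe, with the largest mean fold on Gbp2/Gbp2b (315 to 419 with Blnk against 187 to 236 with pMIG).

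In mice Gbp2, Gbp5 and Gbp2b are the GBPs that carry a lipid anchor at their C terminus, by which they attach to membranes. In mouse cells Gbp2 coats the vacuole of Toxoplasma gondii, and its probe, shared with Gbp2b, had the largest difference of the family. The Gbp2/Gbp2b probe had intensities of 315, 360 and 419 in the Blnk samples, against 187, 236 and 192 in the pMIG samples. The groups were apart, and Blnk 3 was the highest of the 6 arrays. The means were 365 ± 52.2 with Blnk and 205 ± 27.0 with pMIG (SD, n = 3 each), a log2 difference of 0.83 (SE 0.141, 95% interval 0.49 to 1.17). Gbp2b, whose own probe is read apart, had 33, 30 and 39 in the Blnk samples, against 32, 32 and 34 in the pMIG samples. Its groups overlapped, its level was below the median of every array, and its log2 difference was 0.05 (95% interval -0.21 to 0.31).

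Gbp5, which in mouse macrophages promotes inflammasome assembly, had intensities of 177, 172 and 174 in the Blnk samples, against 132, 116 and 107 in the pMIG samples. The Blnk arrays were almost level and the pMIG arrays more spread, with pMIG 1 the highest of its group. The log2 difference was 0.56 (SE 0.0908, 95% interval 0.34 to 0.79), which just missed the threshold at an adjusted p of 0.0521 (limma).

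Gbp3 and Gbp7, the remaining members of the chromosome 3 cluster, differed less. Gbp3 had 404, 390 and 405 in the Blnk samples, against 298, 349 and 331 in the pMIG samples. The groups were apart by 41 units of intensity, and the log2 difference was 0.30 (SE 0.0786, 95% interval 0.11 to 0.49). Gbp7, which in mouse macrophages helps to assemble the phagocyte NADPH oxidase on vacuoles, had 1938, 1926 and 2128 in the Blnk samples, against 1733, 1715 and 1676 in the pMIG samples. This was the smallest log2 difference of the family, at 0.22 (SE 0.0677, 95% interval 0.06 to 0.39), with Blnk 3 standing above the rest of its group.

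In the chromosome 5 cluster Gbp4 rose. Its intensities were 283, 343 and 343 in the Blnk samples, against 187, 212 and 204 in the pMIG samples. Blnk 1 was the lowest of its group and still well above all pMIG arrays. The means were 323 ± 34.6 with Blnk and 201 ± 12.8 with pMIG (SD, n = 3 each), a 1.60-fold rise (log2 difference 0.68, SE 0.103, 95% interval 0.43 to 0.93; limma adjusted p = 0.0446). The call held without Blnk 1 (0.049) and was lost without Blnk 2 (0.17), Blnk 3 (0.167), pMIG 1 (0.151), pMIG 2 (0.137) or pMIG 3 (0.179), while the log2 difference stayed between 0.63 and 0.77. It was also lost when quantile normalization was repeated (0.053) and when arrays were centred on their medians (0.0558).

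Gbp9 and Gbp8 lie beside Gbp4. Gbp9 had 247, 260 and 248 in the Blnk samples, against 174, 190 and 204 in the pMIG samples. The groups were apart, and the log2 difference was 0.41 (SE 0.0793, 95% interval 0.22 to 0.61). Gbp8 had 118, 140 and 142 in the Blnk samples, against 98, 112 and 107 in the pMIG samples. Here the lowest Blnk array exceeded the highest pMIG array by only 6 units, with a log2 difference of 0.33 (SE 0.0999, 95% interval 0.09 to 0.58).

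The probe with 6 symbols, the only one that names Gbp6, had 245, 282 and 291 in the Blnk samples, against 190, 223 and 204 in the pMIG samples. Its groups were apart and its log2 difference was 0.41 (SE 0.099, 95% interval 0.16 to 0.65), which cannot be split among Gbp11, Gbp10, Gbp9, Gbp6, Gbp8 and Gbp4. The probe of Gbp11 alone, which is no member, had 45, 50 and 61 in the Blnk samples, against 39, 37 and 37 in the pMIG samples. It was dim but its groups were apart, with a log2 difference of 0.45 (95% interval 0.16 to 0.75). GBP genes of 1 cluster resemble each other, so a single-symbol probe may also read its neighbours.

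**Figure D3:**
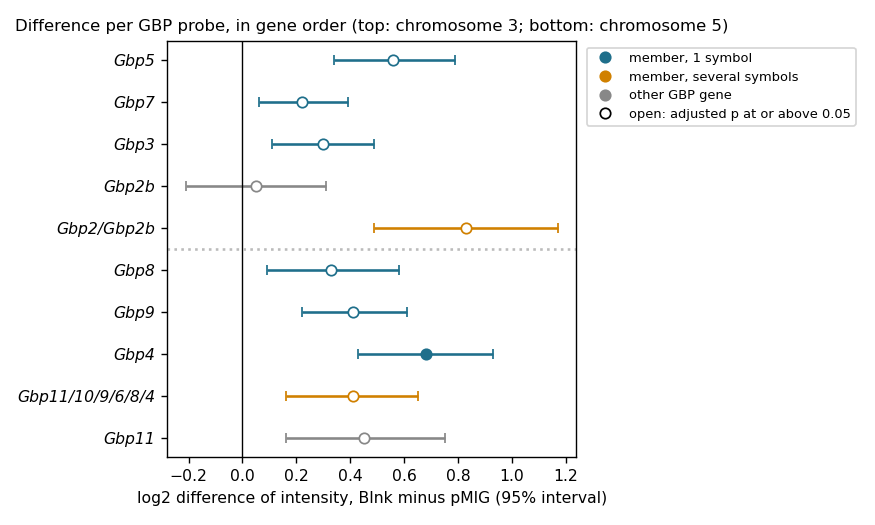
Log2 difference of intensity, Blnk minus pMIG, with its 95% interval, for the 8 member probes and the probes of Gbp2b and Gbp11, in gene order with chromosome 3 above the dotted line. The filled point, Gbp4 at 0.68, passed the threshold, and only the interval of Gbp2b (-0.21 to 0.31) includes 0.

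Ordered by size of the log2 difference, the probes ran from Gbp2/Gbp2b (0.83) through Gbp4 (0.68), Gbp5 (0.56), Gbp9 (0.41), the probe with 6 symbols (0.41), Gbp8 (0.33) and Gbp3 (0.30) to Gbp7 (0.22). Intervals of neighbours in this order overlapped throughout. Gbp7, the smallest, had an interval wholly below those of Gbp4 and Gbp2/Gbp2b, and differences between probes were not tested. The chromosome 3 cluster held both ends of the order, Gbp2/Gbp2b and Gbp7.

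Within a group the GBP probes leaned the same way on some arrays. Blnk 1 was the lowest Blnk array on 5 of 8 probes and Blnk 3 the highest on 5, with mean deviations from the group mean of -0.09 and 0.07 on the log2 scale. Among the pMIG arrays, pMIG 1 was the lowest on 6 of 8 probes and pMIG 2 the highest on 5, with mean deviations of -0.06 and 0.07. Gbp5 and Gbp7 were the exceptions on pMIG 1, where each had the highest value of its group. These deviations were small beside the family's median difference of 0.41. The Blnk probe itself was lowest in Blnk 1 among the Blnk samples and highest in Blnk 2.

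By a rule of likeness over the 6 arrays (the root mean square difference between log2 intensities centred on each probe's mean, among single-gene probes with a mean log2 intensity of at least 5), the nearest of 16220 probes to Gbp4 was that of Irf1. Irf1, an interferon-induced transcription factor, had 375, 479 and 488 in the Blnk samples, against 271, 292 and 280 in the pMIG samples, and lay 0.041 from Gbp4. Its groups were apart, Blnk 1 was the lowest of its group as in Gbp4, and its log2 difference was 0.66 (SE 0.116). Plxnc1, a semaphorin receptor, followed at 0.043 and Slc43a2, a carrier of large neutral amino acids, at 0.046. The other single-symbol GBP probes were farther from Gbp4, from 0.163 for Gbp9, at rank 277, to 0.250 for Gbp7, at rank 1053. All of these probes share the direction of the difference between the groups.

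**Figure D4:**
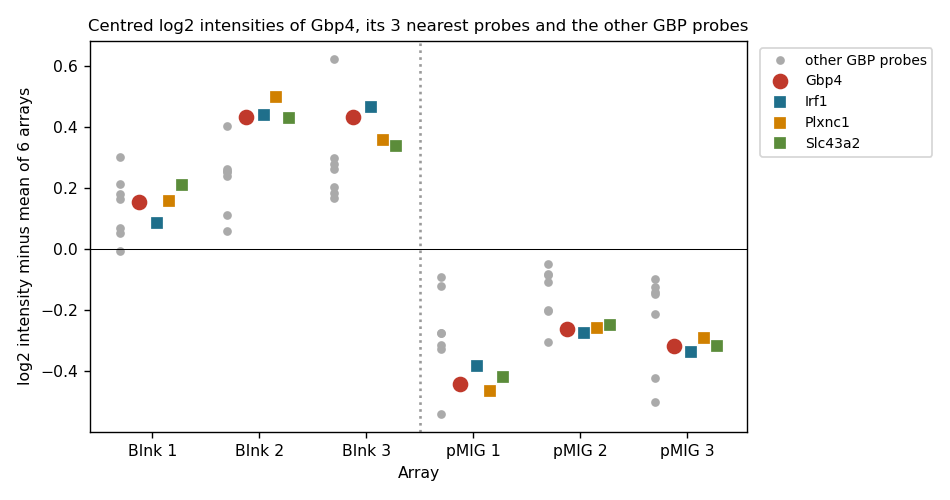
Log2 intensity minus the mean of the 6 arrays, per array, for Gbp4, its 3 nearest probes Irf1, Plxnc1 and Slc43a2, and the other GBP probes in grey. On all but 1 of the points the Blnk arrays are above 0 and the pMIG arrays below 0, and Irf1 follows Gbp4 within a root mean square difference of 0.041.

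Of the interferon pathway upstream of the GBPs, 19 of 20 listed ligands, receptors and signalling genes were measured, and 0 passed (limma; 7 at an unadjusted p under 0.05, where 13.0% of all probes were, in either direction; median log2 difference 0.14). Irf1 stood at 0.66 (adjusted p = 0.0667), the largest of the list, and like Gbp4 it was called with 1 probe per gene (0.0173). The kinase Tyk2, named after its values were seen, was next at 0.46 (adjusted p = 0.0816; 0.0285 with 1 probe per gene), with every Blnk array above every pMIG array. Stat2 stood at 0.37 (adjusted p = 0.10) and Irf9, its partner in the complex that binds ISRE, at 0.31 (adjusted p = 0.0983). The receptor chains Ifngr1 (0.14), Ifngr2 (0.06), Ifnar1 (0.19) and Ifnar2 (0.14) and the other listed kinases, Jak1 (0.10) and Jak2 (0.13), stood nearer to 0, and Irf8 stood at -0.21 (adjusted p = 0.206). On 11 of the 19 every Blnk array lay above every pMIG array, Ifngr1, Ifnar1, Jak1 and Jak2 among them, where 11.0% of all probes had this order. On 1, Irf8, every Blnk array lay below. Interferon gamma itself, Ifng, was dim, with 49, 48 and 44 in the Blnk samples, against 41, 36 and 35 in the pMIG samples, and did not pass (0.33, adjusted p = 0.181).

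Other interferon-stimulated genes stood on both sides of 0. Of 35 listed, 33 were measured, 2 rose and 0 fell, where 1.03% of all probes were called higher and 0.384% lower. Their median log2 difference was 0.10, against 0.41 for the 8 GBP probes and 0.37 for the 6 with a single symbol. Of the 33, 11 had an unadjusted p under 0.05 (limma), where 13.0% of all probes did. Every Blnk array lay above every pMIG array on 9 and below on 2, Ifit2 and Ifit1, where 11.0% of all probes had the first order. The share of all probes with the second order was not counted. Several of these genes were dim, such as Mx1 (12 to 17), while each of the 8 GBP member probes lay above the median intensity of every array. Samd9l, an antiviral factor, rose by 0.75 (limma adjusted p = 0.0459) and Isg20, an RNA exonuclease, by 0.55 (limma adjusted p = 0.0437), and neither call held with any 1 array left out. Ifit2, also antiviral, had 149, 115 and 138 in the Blnk samples, against 184, 193 and 186 in the pMIG samples, a log2 difference of -0.49 that did not pass (limma adjusted p = 0.113). Ifit1 also stood below 0 (-0.48, limma adjusted p = 0.119), but it was dim, with 17, 17 and 16 in the Blnk samples, against 25, 20 and 25 in the pMIG samples. With 1 probe per gene, 3 of the 33 rose and 2, Ifit2 and Ifit1, fell, where 2.51% of genes were called higher and 1.10% lower.

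Among the partners of GBPs, genes of the inflammasome had 1 of 12 members up and 0 down, where 1.03% of all probes were called higher, with 8 at an unadjusted p under 0.05 (13.0% of all probes) and a median log2 difference of 0.36. The member that rose was Nlrc4, the scaffold of an inflammasome that responds to flagellin and secretion system proteins. It had 111, 101 and 107 in the Blnk samples, against 63, 63 and 63 in the pMIG samples (log2 difference 0.75, limma adjusted p = 0.00757). This call was lost without Blnk 3, pMIG 2 or pMIG 3, up to an adjusted p of 0.0595 (limma). Nlrp3, the sensor of a different inflammasome, had 46, 45 and 47 in the Blnk samples, against 56, 59 and 69 in the pMIG samples (-0.41, limma adjusted p = 0.127). Nlrp3 was the only gene of the list that was lower with groups apart. On 7 of the 12 every Blnk array lay above every pMIG array, where 11.0% of all probes had this order. The largest log2 difference of the list was that of Il18, at 0.92, which did not pass (limma adjusted p = 0.14). Il18 had 90, 80 and 65 in the Blnk samples, against 32, 54 and 40 in the pMIG samples. Its pMIG values, like those of Nlrc4, lay below the median intensity of every array. Of 10 genes of class I presentation and the immunoproteasome, which interferon gamma also induces, 0 passed (median 0.19). At an unadjusted p under 0.05 by limma there were 6, all higher with Blnk. On 7 of the 10 every Blnk array lay above every pMIG array, and on 0 below, where 11.0% of all probes had the first order. Of 12 genes of the ATG conjugation machinery, which places GBPs on vacuoles in mouse cells, 0 passed (3 at an unadjusted p under 0.05 by limma, all higher with Blnk; median 0.11). Of 8 prenylation genes, which make the lipid anchor, 0 passed (1 at an unadjusted p under 0.05 by limma; median 0.01), and of 10 atlastins, dynamins and mitofusins, more distant GTPase relatives, 0 passed (1 likewise; median -0.02).

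**Figure D5:**
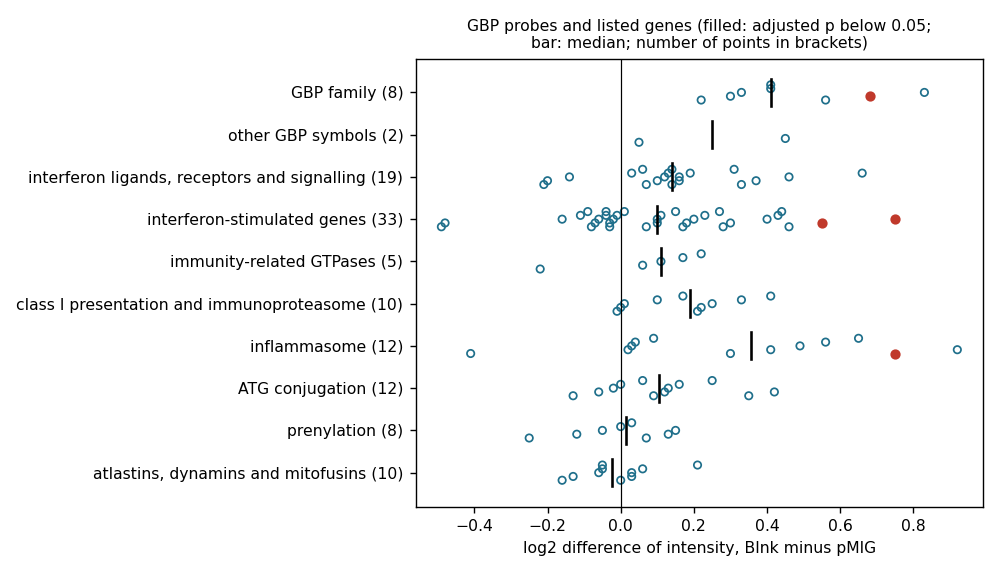
Log2 difference of intensity, Blnk minus pMIG, of the 8 GBP probes in the top row and of the genes of each list below, with a bar at the median of each row. All GBP points lie above 0 with a median of 0.41, while the interferon-stimulated genes run from -0.49 to 0.75 around a median of 0.10. The GBP row includes 2 probes with several symbols, and the lists hold single-gene probes only, some of them dim.

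Markers of other cell types were read as well. Of 12 measured myeloid markers 1 rose, where 1.03% of all probes were called higher. It was the Fc receptor Fcgr1, with 235, 258 and 233 in the Blnk samples, against 135, 160 and 139 in the pMIG samples (log2 difference 0.74, limma adjusted p = 0.0238). This call was lost with any 1 array left out (limma adjusted p 0.0512 to 0.13). The summed intensity of the myeloid list was 571 to 590 in the Blnk samples and 457 to 505 in the pMIG samples, and without Fcgr1 it was 332 to 349 with Blnk and 318 to 348 with pMIG. Mpo, the next brightest of the list, had 42 to 48 with Blnk and 40 to 48 with pMIG. Of 12 T and NK cell markers 0 passed (0 at an unadjusted p under 0.05 by limma), with sums of 671 to 762 with Blnk and 648 to 757 with pMIG. The brightest of these were Cd8a (log2 difference 0.12) and Zap70 (-0.02). Of 6 erythroid and megakaryocyte markers, led by Itga2b (0.05) and Epor (0.08), 0 passed, and of 8 stromal and endothelial markers, led by Col1a1 (-0.12) and Col1a2 (0.01), 0 passed (0 and 1 at an unadjusted p under 0.05 by limma). Intensities have no true 0 on these arrays, and the part of other cells in the GBP values was not tested.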

How the data were processed

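The deposited table holds intensities on a linear scale, whole numbers from 3 to 22187, 1 per probe and array. Per the submitters' processing notes, the authors used RMA (version not given in the sources used here). Log2 was taken with nothing added. Probes were named from the platform annotation: of 35421 probes, 21789 had 1 symbol, 1621 several and 12011 none. All probes entered 1 fit of Blnk against pMIG (lmFit and eBayes, limma 3.58.1, R 4.3.3, group as the only term, two-sided), with Benjamini-Hochberg adjustment over all probes and a threshold of 0.05. Listed genes were read by their brightest single-gene probe. The number of arrays limits the precision.

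The members, lists and rules were chosen with earlier results of these data known. Named were all GBP probes, Blnk, 12 fixed interferon pathway genes of which 1 is not reported here, up to 4 passing genes per list, and the 2 brightest markers of each other cell type. Ifit1, Ifit2, Mx1, Tyk2, Nlrp3, Il18 and the pre-B markers were named after their values were seen. The fit was tested on simulated data over 35421 probes: it recovered 22% of log2 changes of 0.5 and 62% of changes of 1. It also made 6 false calls, among probes given no change. The replicate numbers were not taken to pair the samples. Alternatives were a replicate block, repeated quantile normalization, median centring, dim probes left out (below the 40th percentile), 1 probe per gene (19938 genes), 16 added before log2, a trended variance prior, array weights, and each array left out. Leaving out probes without a symbol was chosen after seeing the data. Windows of sequence came from RefSeq tables (GRCm38.p6).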

Additional observations from a re-analysis of the deposited data

How the results depend on the processing

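All 8 GBP probes stayed higher with Blnk under every alternative that fitted them. Their calls did not stay: the number passing was 0 with the replicate block, after repeated quantile normalization and after median centring, 3 with 1 probe per gene (of 6), a trended variance prior or array weights, and 4 with dim probes left out, with 16 added before log2 or with probes without a symbol left out, against 1 as reported. Leaving out 1 array gave 0 to 1. Over all probes, 502 passed as reported, 0 with the replicate block, 1002 without dim probes, 822 with 16 added, 1012 with the trended prior, 802 without probes lacking a symbol, and 87 to 211 with 1 array left out. Of the 502, 366 were higher and 136 lower, against 273 and 162 after repeated quantile normalization, and this moved the median of all probes from 0.007 to -0.021. Blnk kept its log2 difference of 1.64 with the replicate block but did not pass (adjusted p = 0.0713, limma). Deviations of same-numbered samples correlated at -0.139, 0.112 and -0.10 across probes, so the numbers were not taken to pair the samples, and not every sample correlated best with its own number.

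Interferon signalling genes, 0 as reported, numbered 4 without dim probes, 3 with 1 probe per gene, 2 with 16 added, 3 with the trended prior, 1 with array weights, 4 without probes lacking a symbol and 0 to 1 with 1 array left out. Interferon-stimulated genes, 2 as reported, numbered 0 with the replicate block, repeated quantile normalization or median centring, 5 with 1 probe per gene, 4 without probes lacking a symbol and 0 with any 1 array left out. Class I genes numbered 2, 2, 1, 2 and 2 without dim probes, with 1 probe per gene, with 16 added, with the trended prior and without probes lacking a symbol, against 0. Inflammasome genes numbered 0 with the replicate block, 3 with 1 probe per gene, 2 without probes lacking a symbol and 0 to 2 with 1 array left out, against 1. ATG conjugation genes numbered 1 without dim probes, with 1 probe per gene, 16 added, the trended prior, array weights or probes lacking a symbol left out, against 0. Fewer probes tested and fewer arrays change the adjustment and the power by construction, and other causes were not tested.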

Other observations

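The immunity-related GTPases, a family that includes interferon-induced partners of the GBPs on vacuoles, were read largely by probes with several symbols. Of 14 listed genes 5 had a single-gene probe, and 0 of these passed (limma; 0 at an unadjusted p under 0.05; median log2 difference 0.11), with Irgm1, a regulator of the family, at 0.22. The probe shared by Irgm2 and Igtp had 114, 104 and 107 in the Blnk samples, against 74, 87 and 80 in the pMIG samples, a log2 difference of 0.43 (SE 0.0838, limma adjusted p = 0.0893). Its groups were apart, as on all 8 GBP probes, where 11.0% of all probes had every Blnk array above every pMIG array. Of the 5 single-gene probes 1, that of Irgm1, had this order. The 2 probes shared by 9930111J21Rik1 and 9930111J21Rik2 both stood at 0.39, and the 2 probes shared by Tgtp1 and Tgtp2 at 0.22 and 0.15 with overlapping groups. The probe shared by Olfr56 and Ifi47 stood at 0.25 and that shared by Gm4070 and Gvin1 at 0.20, both with groups apart. The 2 probes with 5 symbols, Gvin1 among them, stood at 0.04 and 0.06 with overlapping groups. None of these probes passed.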
